A study of Mus musculus with 6 samples.

Results

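The acrosome is the cap-like vesicle at the front of the sperm head. It forms from Golgi vesicles in round spermatids, spreads over the nucleus as the spermatid elongates, and carries the enzymes and binding proteins that a sperm uses at the egg coat. Many of its proteins are particular to male germ cells, and their mRNAs appear in an order that runs from spermatocytes through meiosis to round spermatids. Described here are 9 acrosome genes, chosen by name from 32285 genes in the count matrices: Acr, Acrv1, Spaca1, Spaca3, Spaca4, Spaca7, Zpbp, Zpbp2 and Spink2.

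The testes came from wildtype C57BL/6 mice (C57BL/6N in the methods of the study) aged 8 weeks. Before dissociation to single cells the mice had been fed for 2 weeks, on an HFD (high in fat) or on an LFD (low in fat). Each diet has 3 libraries. The methods name 3 mice per diet for this assay and the labels do not tie a mouse to a library, so p-values measure the spread between these libraries. All 9 genes were found in each library. They held 1671987 UMIs in all (unique molecular identifiers, tags that mark single captured RNA molecules), and 69.5% of these lay in the barcodes staged below.

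The diet of a library was read from its label. In all 6 libraries the name of the deposited file states the other diet. The barcode numbers listed per library in the study match the names rather than the labels. The groups are kept as labelled, and are written as libraries labelled HFD or LFD. Should the names be right, every diet difference below would change sign with its p-value as printed. The stage results do not use the diet.

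Library totals ran from 39196921 to 95845514 UMIs over 5753 to 11095 barcodes, and any pair of libraries shared 12 to 28 barcodes. Libraries stood apart in ways that the diet labels do not give. Summed haemoglobin genes were at 0.0209 and 0 CPM (UMIs per 1e6 UMIs of the library or stage) in the libraries labelled HFD replicate 1 and LFD replicate 1 and at 30.5 to 99.7 CPM in the other 4. In HFD replicates 2 and 3, the deviation of a gene from its mean over libraries fell with the GC content of its transcript (Spearman's rho -0.50 to -0.24 over the whole testis and the stages, across genes), against 0.27 to 0.42 in HFD replicate 1 and -0.02 to 0.33 in the libraries labelled LFD. In HFD replicate 2, 637 of 1484 barcodes with at least 10000 UMIs matched no stage, against 39 to 144 in each of the others.

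Germ cell stages were set by the UMIs of other genes, none of them an acrosome gene. The list of markers held Piwil1 for pachytene spermatocytes, Ccna1, Aurka and Pou5f2 for late pachytene and dividing spermatocytes, Ssxb genes, Sun5 and Catsper4 for round spermatids, Fam71b for the start of elongation and the transition protein and protamine genes (Tnp1, Tnp2, Prm1 and Prm2) for elongating and condensing spermatids. The thresholds on these markers were set after the marker counts had been seen. Of 48939 barcodes, 7360 were placed in 9 stages, which is 85.8% of the 8576 barcodes with at least 10000 UMIs. Each stage held 286 to 1389 barcodes, and counts were summed per library over each stage with at least 20 barcodes. This left 5 libraries for late pachytene (without LFD replicate 3) and 4 for condensing spermatids (without HFD replicate 2 and LFD replicate 3). The stages are ordered by marker genes, and no cell was followed from stage to stage.

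The 9 genes fell into 2 sets by the stage at which their mRNA appeared. Acr, Spink2, Zpbp and Zpbp2 were on by pachytene. Acrv1, Spaca1, Spaca3, Spaca4 and Spaca7 rose from meiotic division to the round spermatid. The sequences just before the start of a few of these genes are shown so that both sets can be read beside their levels. Each run is the 150 bases before the RefSeq start site nearest the annotated start of the gene (GRCm38.p6), 5′ to 3′ on the strand of the gene, and the capitals mark the motifs named below. RefSeq promoters were matched for 8 of the 9 genes, all but Acr. Spink2 lies on the minus strand, with the run at chr5:77211472-77211621, Zpbp2 on the plus strand at chr11:98550947-98551096, Acrv1 on the plus strand at chr9:36693070-36693219, Spaca1 on the minus strand at chr4:34050068-34050217 and Spaca3 on the plus strand at chr11:80858213-80858362.
Spink2: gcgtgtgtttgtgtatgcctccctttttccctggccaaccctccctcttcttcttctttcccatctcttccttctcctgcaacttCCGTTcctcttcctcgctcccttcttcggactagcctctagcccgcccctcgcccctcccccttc
Zpbp2: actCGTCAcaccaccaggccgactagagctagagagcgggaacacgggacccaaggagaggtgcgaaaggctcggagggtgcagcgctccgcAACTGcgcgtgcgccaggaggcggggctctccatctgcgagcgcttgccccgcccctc
Acrv1: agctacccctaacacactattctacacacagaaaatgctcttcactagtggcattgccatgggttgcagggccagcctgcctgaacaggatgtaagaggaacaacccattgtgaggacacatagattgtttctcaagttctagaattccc
Spaca1: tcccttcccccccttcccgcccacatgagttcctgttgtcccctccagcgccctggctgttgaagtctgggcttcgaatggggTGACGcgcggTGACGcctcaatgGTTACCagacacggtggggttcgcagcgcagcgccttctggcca
Spaca3: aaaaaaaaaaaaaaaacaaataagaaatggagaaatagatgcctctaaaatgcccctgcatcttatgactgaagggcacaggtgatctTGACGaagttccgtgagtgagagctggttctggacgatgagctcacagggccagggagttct

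The motifs searched, on both strands, were the full cAMP response element TGACGTCA and its core TGACG, which CREB-family factors bind, the RFX half-sites GTTGCC and GTTACC, and the MYB cores AACTG and AACGG. The core TGACG also lies inside the full element. The core TGACG was found before 3 of the 8 genes, with matches 67 and 57 bases before the start of Spaca1, 62 bases before that of Spaca3 and 147 bases before that of Zpbp2. It was found in 13.3% of all 32851 promoter windows of this length. GTTACC was found 44 bases before Spaca1 and in 3.80% of all windows. The RefSeq start used for Spaca1 lies inside the annotated gene (chr4:34024874-34050191, minus strand). Its TGACG and GTTACC matches therefore also lie inside the gene as annotated. AACTG was found before Zpbp2 and Spaca7 and in 24.6% of all windows, and AACGG before Spink2 and in 9.44%. No full element and no GTTGCC was found before the 8 genes (1.36% and 6.64% of all windows). A match is a description of the letters and not of binding.

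The lysosome-like contents of the acrosome include acrosin, the trypsin-like protease encoded by Acr (ENSMUSG00000022622, chr15:89568326-89574585, plus strand; GRCm38 here and for the genes that follow, from GENCODE vM21), and the Kazal-type protease inhibitor encoded by Spink2 (ENSMUSG00000053030, chr5:77205107-77211471, minus strand). In pachytene, Acr was at 92.5, 85.8 and 84.8 CPM in the libraries labelled HFD and at 95.9, 89.6 and 101.6 CPM in those labelled LFD. In early germ cells (spermatogonia and early spermatocytes) the same 6 libraries held 13.3 to 27.0 CPM, so the stages did not overlap. The difference on the log2 scale, relative to TMM scaling, was 2.64 ± 0.15 (SE; edgeR adjusted p = 1.7e-26). Acr went on to 146 ± 8.1 CPM (SD, n = 5) in late pachytene and 223 ± 23.3 (SD, n = 6) in dividing spermatocytes. Its highest levels were in early and later round spermatids, at 258 ± 18.2 and 260 ± 21.4 CPM (SD, n = 6), which did not differ beyond the spread of the libraries on the CPM scale.

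Spink2 rose at the same step. It stood at 64.7 to 173.6 CPM in early germ cells and at 806 to 1035 CPM in pachytene (log2 difference 3.39 ± 0.15, SE; adjusted p = 6.3e-31). Its top stage was dividing spermatocytes, with 2508, 2469 and 2449.8 CPM in the libraries labelled HFD and 2375, 2266 and 2366 CPM in those labelled LFD. From there the level declined through early round (2059 ± 49.6 CPM, SD, n = 6) and later round spermatids (1679 ± 42.3). All 6 libraries were lower at each of these steps in CPM, while relative to TMM scaling the log2 differences were -0.06 ± 0.13 and -0.05 ± 0.13 (SE; adjusted p = 0.72 and 0.78). In CPM, the inhibitor mRNA was at its highest level a stage or more before that of Acr. Relative to TMM scaling neither single step of Spink2 passed the test, and the decline over both steps together was not tested.

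**Figure D1:**
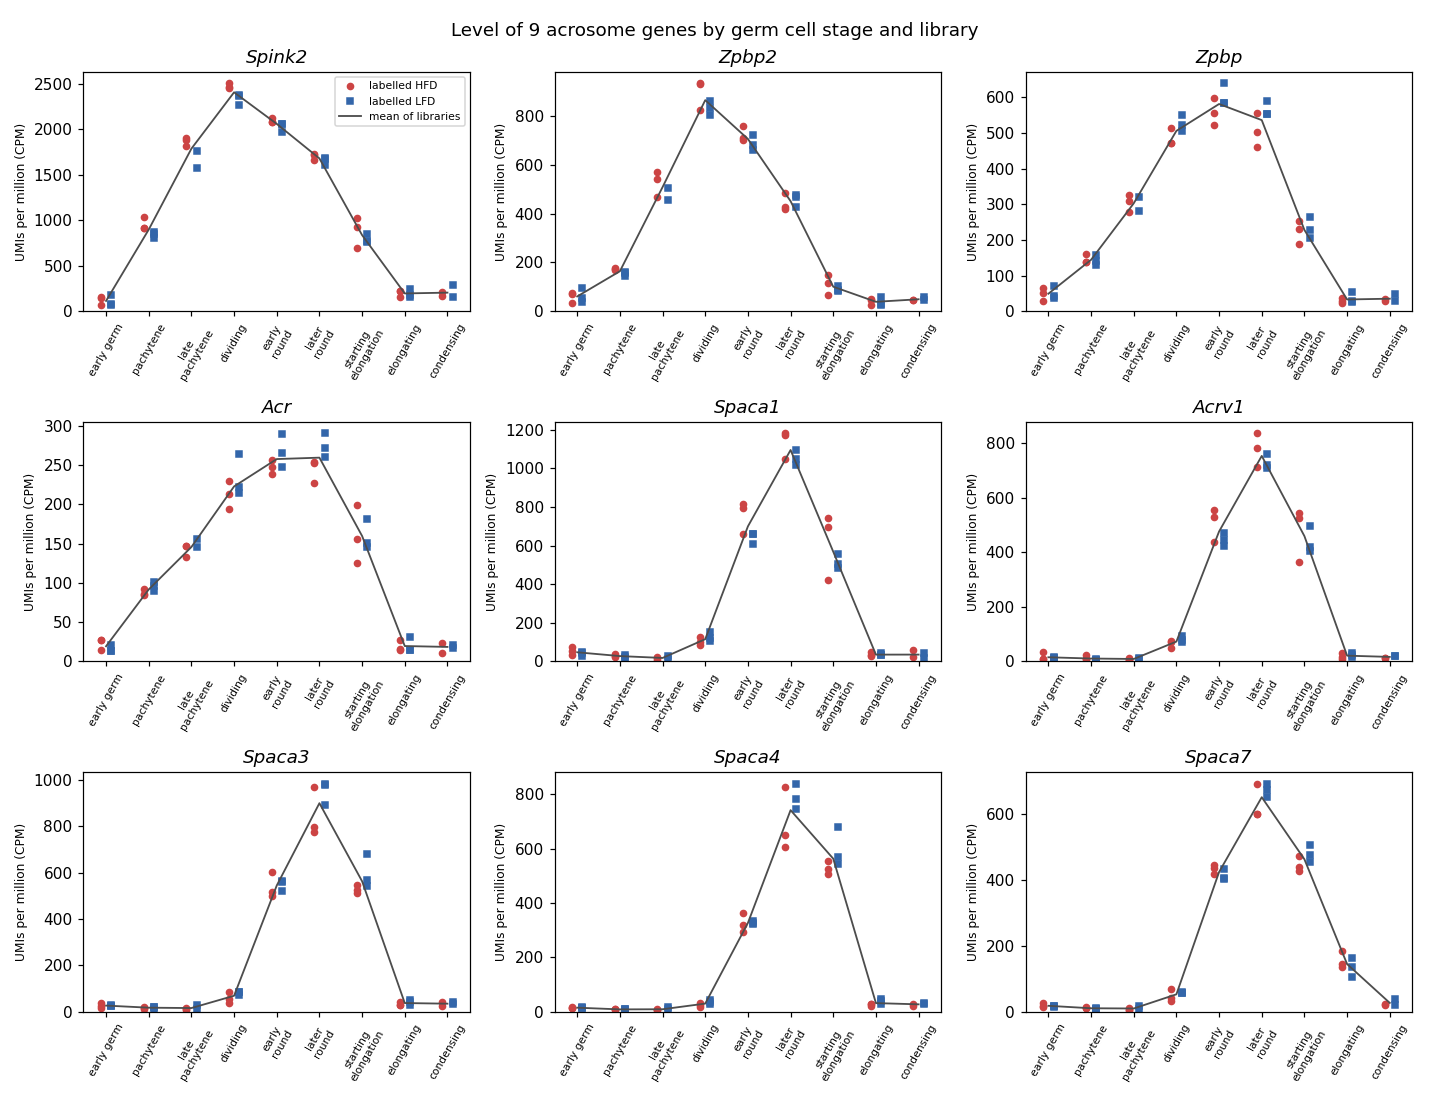
Each panel plots the level in CPM (linear axis from 0) of a gene against germ cell stage. Points are libraries (circles labelled HFD, squares labelled LFD) and the line joins their means. The top row and Acr rise from pachytene, and the other 5 genes stay near the axis until the dividing spermatocytes and peak in later round spermatids.

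Zpbp (ENSMUSG00000020193, chr11:11279626-11462408, minus strand) and Zpbp2 (ENSMUSG00000017195, chr11:98551097-98558665, plus strand) encode related acrosomal proteins that bind the zona pellucida, the egg coat. Zpbp was at 130 to 161 CPM in pachytene against 27.6 to 69.8 CPM in early germ cells (log2 difference 1.95 ± 0.14, SE; adjusted p = 2.0e-20). It reached its top in early round spermatids, at 598, 522 and 556 CPM in the libraries labelled HFD and 583, 585 and 639.9 CPM in those labelled LFD. Zpbp2 was at 144 to 177 CPM in pachytene against 35.6 to 94.5 CPM in early germ cells (log2 difference 1.86 ± 0.15, SE; adjusted p = 4.4e-19), and its next step, to late pachytene, was a further 1.65 ± 0.13 (adjusted p = 1.3e-17).

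The paralogs did not leave together. Zpbp2 peaked in dividing spermatocytes at 865 ± 55.1 CPM (SD, n = 6) and was down to 451 ± 29.1 CPM in later round spermatids and 101 ± 28.2 CPM at the start of elongation. As a share of its own top stage, that is 52.2% and 11.6%. Zpbp still held 92.2% of its top in later round spermatids and 39.2% at the start of elongation, and the ranges of these shares over libraries (44.9 to 59.1% for Zpbp2 and 88.1 to 94.9% for Zpbp in later round spermatids) did not overlap. At the start of elongation they did not overlap either, at 8.26 to 15.9% and 31.4 to 48.7%. Zpbp overlaps Spata48 on the opposite strand, and the counting of strand is not stated in the sources used here.

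Acrv1 (ENSMUSG00000032110, chr9:36693220-36698843, plus strand) encodes the acrosomal matrix protein SP-10. In late pachytene it was at 3.80 to 14.0 CPM. In dividing spermatocytes it was at 73.3, 71.1 and 50.5 CPM in the libraries labelled HFD and at 70.8, 80.5 and 91.7 CPM in those labelled LFD, above every late pachytene value (log2 difference 3.30 ± 0.22, SE; adjusted p = 7.8e-22). A second rise of 2.88 ± 0.16 (SE; adjusted p = 9.7e-26) followed in early round spermatids, where it was at 477 ± 53.6 CPM (SD, n = 6), and the top was 754 ± 50.2 CPM in later round spermatids.

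Spaca1 (ENSMUSG00000028264, chr4:34024874-34050191, minus strand) encodes a protein of the inner acrosomal membrane that is needed to shape the acrosome. It went from 18.1 ± 8.13 CPM (SD, n = 5) in late pachytene to 115 ± 23.5 (SD, n = 6) in dividing spermatocytes, 699 ± 84.0 in early round and 1095 ± 68.0 CPM in later round spermatids. Both steps up to early round spermatids passed the test, at log2 differences of 2.96 ± 0.19 and 2.75 ± 0.15 (SE; adjusted p = 1.2e-22 and 2.5e-26). Its 2 core motifs and its GTTACC stand in the run printed above.

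Spaca3 (ENSMUSG00000053184, chr11:80858365-80867814, plus strand) encodes a lysozyme-like protein. It held 36.8 to 84.9 CPM in dividing spermatocytes and 499.6 to 604 CPM in early round spermatids, a log2 difference of 3.20 ± 0.16 (SE; adjusted p = 1.4e-29). Its top was 969, 776 and 797 CPM in the libraries labelled HFD and 980.2, 893 and 985 CPM in those labelled LFD, in later round spermatids.

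Spaca4 (ENSMUSG00000070563, chr7:45725107-45725813, minus strand), which encodes a lipid-anchored surface protein of the Ly6 family, was the latest of the set. It was at 17.8 to 41.0 CPM in dividing spermatocytes, 293 to 364 CPM in early round and 604 to 839 CPM in later round spermatids. In early round spermatids it stood at 44.03% of its top, against 60.5 to 65.1% for Acrv1, Spaca1, Spaca3 and Spaca7. The range of Spaca4 over libraries, 39.8 to 49.1%, lay below the ranges of those 4 genes. Early and later round spermatids were parted by the level of Sun5 and Catsper4, and Catsper4 was the gene most like Spaca4 over the stages. The place of Spaca4 as the latest is therefore not independent of the stage markers. Sun5 and Catsper4 also helped to part dividing from early round spermatids. Acrv1, Spaca1, Spaca3 and Spaca7 followed Spaca4 over the stages (Pearson's r = 0.97, 0.96, 0.99 and 0.95). Their rises to early and later round spermatids are thus not independent of these markers either. Spaca4 overlaps Fam83e on the opposite strand.

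Spaca7 (ENSMUSG00000010435, chr8:12573029-12600744, plus strand), which encodes a secreted acrosomal protein and overlaps D630011A20Rik on the opposite strand, rose with the others and left later. It was at 651 ± 42.5 CPM (SD, n = 6) in later round spermatids and 463 ± 28.4 CPM at the start of elongation. In elongating spermatids it still held 144, 184 and 135 CPM in the libraries labelled HFD and 134, 107 and 163 CPM in those labelled LFD, which is 22.2% of its top. For the other 8 genes this share was 2.82 to 8.15%. In condensing spermatids Spaca7 was down to 21.3 to 39.1 CPM in 4 libraries (log2 difference -2.16 ± 0.22, SE; adjusted p = 1.0e-12).

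**Figure D2:**
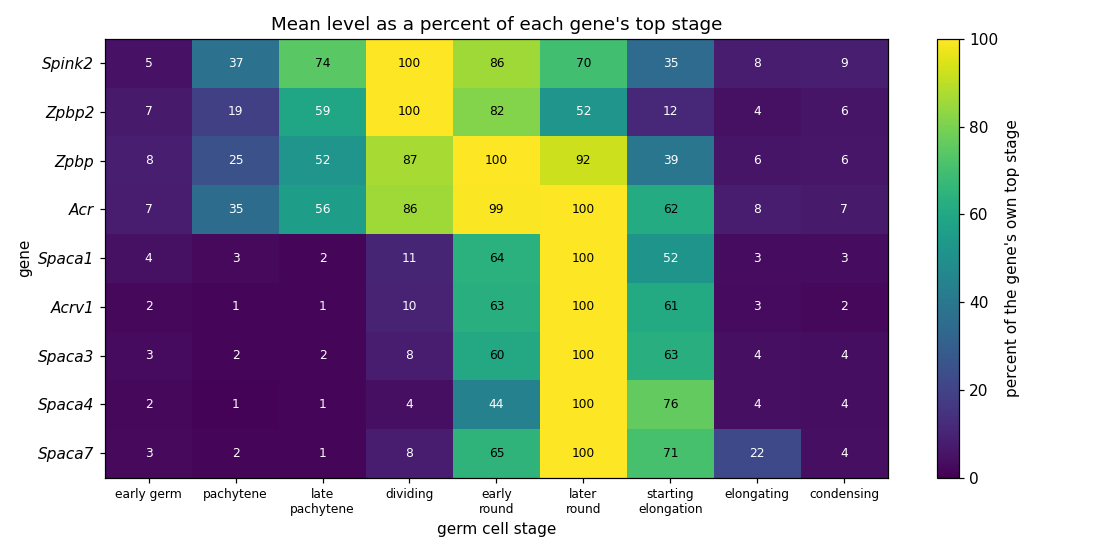
Rows are the 9 genes and columns the 9 stages. Colour and number give the mean level as a percent of the gene's own top stage. The top 4 rows hold 19 to 37% of their top in pachytene, while the bottom 5 rows hold 1 to 3% there and 44 to 65% in early round spermatids.

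Set against all 16884 genes tested, the steps read as follows. From early germ cells to pachytene, 4 of the 9 genes rose and 0 fell, and 33.8% of all genes rose and 35.5% fell. With library totals as the only scaling, 4 of the other 5 (all but Acrv1) were called lower at this step. From pachytene to late pachytene the same 4 rose and Spaca1 fell by 0.71 on the log2 scale, at mean levels below the free RNA level given further on (single libraries lay on both sides of it), where 20% of all genes rose and 33.3% fell. From late pachytene to dividing spermatocytes 9 of 9 rose, where 32.1% of all genes rose and 26% fell, with a median log2 difference of 1.97 over the 9 genes and 0.14 over all genes. From there to early round spermatids 7 rose and 0 fell (33.8% and 30% of all genes), with medians of 2.75 and 0.01. Spink2 and Zpbp2 did not pass this test in either direction. With library totals as the only scaling 7 were also called, but Zpbp (0.20) was lost and Zpbp2 (-0.29) was called lower.

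From early to later round spermatids 6 genes rose and Zpbp2 fell (27.3% of all genes rose and 25.8% fell). The rise of Acr at this step was 0.25 ± 0.10 (SE; adjusted p = 0.035), and with library totals as the only scaling it was 0.01 and was not called. The call was also lost with no library block, and without HFD replicate 1, LFD replicate 1 or LFD replicate 2. From elongating to condensing spermatids Spaca7 fell and 0 of 9 rose, where 10.7% of all genes fell and 6.99% rose. The start of elongation depends on the scaling. Every one of the 9 genes was lower than in later round spermatids in 6 of 6 libraries in CPM, and 9 of 9 were called lower with library totals. Relative to TMM scaling 4 fell (Zpbp2, Zpbp, Spink2 and Spaca1, where 31.1% of all genes fell and 27.9% rose). The call for Spaca1 was lost with stages from clusters and with no library block, while Spaca4 was called higher with clusters (0.28) and with DESeq2 size factors (0.25). Spaca4 and Spaca7 were there at 0.17 ± 0.12 and 0.07 ± 0.13 (SE; adjusted p = 0.25 and 0.68), against -0.39 and -0.49 with library totals. The median of all genes at this step was -0.37 in log2(CPM + 1) and -0.07 relative to TMM. At the next step, to elongating spermatids, 9 of 9 fell (30.6% of all genes fell and 21% rose), from -0.90 for Zpbp2 to -3.96 for Acrv1.

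Free RNA in the droplets limits how low a level can be read. Prm1, an mRNA of elongating spermatids, was also counted in Sertoli and macrophage barcodes, and a single source of free RNA would keep each gene in 1 ratio to Prm1. For each library the ratio of a gene to Prm1 in Sertoli and macrophage barcodes was multiplied by the Prm1 level of each stage. Prm1 was itself a gating marker. Barcodes of the stages compared here held under 200 UMIs of Tnp1, Tnp2, Prm1 and Prm2 per 10000, and Sertoli and macrophage barcodes under 1000. The gate thus limits the Prm1 level used for scaling. These stages also held under 1 UMI of Sun5 and Catsper4 per 10000, which limits RNA of round spermatids in them. The part of these limits in the ratios was not tested. In pachytene, Acr, Spink2, Zpbp and Zpbp2 were 5.44 to 8.90 times the level obtained in this way and above it in 6 of 6 libraries. In late pachytene they were 12.3 to 18.8 times and above it in 5 of 5. Acrv1, Spaca1, Spaca3, Spaca4 and Spaca7 were at 0.42 to 0.90 times in pachytene and 0.46 to 0.69 times in late pachytene as ratios of the means. By library they lay on both sides of it, above in 2 (Spaca7) to 4 (Spaca1 and Spaca3) of 6 libraries in pachytene, at up to 2.42 times, and in 1 (Spaca7) to 3 (Spaca1 and Spaca3) of 5 in late pachytene, at up to 2.23 times. A level of their own could not be told from free RNA in these stages. In dividing spermatocytes 4 of these 5 were above it in 6 of 6 libraries, at 3.07 to 5.52 times, and Spaca4 in 4 of 6, at 1.67 times. In early germ cells all 9 were at 0.40 to 1.09 times as ratios of the means, with Spink2 above it in 0 of 6 libraries and Zpbp in 5 of 6.

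**Figure D3:**
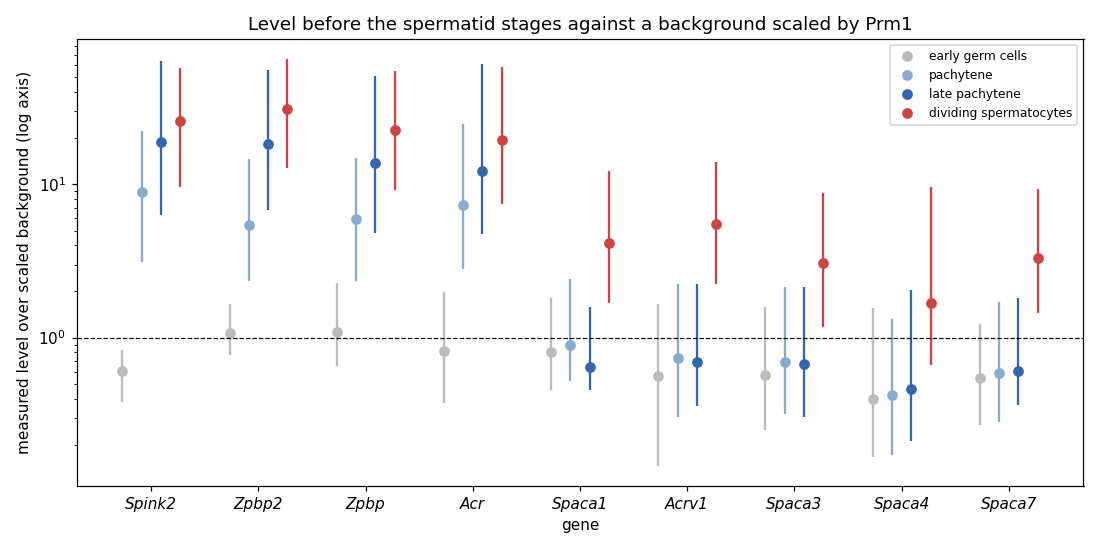
The measured level divided by the level scaled from Prm1 (log axis) is plotted for 4 stages and 9 genes. Points are the ratio of the means over libraries, bars run from the lowest to the highest library and the dashed line marks a ratio of 1. Spink2, Zpbp2, Zpbp and Acr lie above the line from pachytene, and the other 5 genes rise over it in dividing spermatocytes, where the bar of Spaca4 still crosses it.

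The share of barcodes with a UMI was compared after each barcode was thinned to 2000 UMIs. In pachytene a UMI of Acr was found in 17.6% of barcodes, and in 14.5% of Sertoli barcodes. Spink2 was found in 73.7% and 72.3%, Zpbp in 23.7% and 25.6%, and Zpbp2 in 26.3% and 37.7%. In pachytene none of the 4 could be told from the Sertoli share. Zpbp and Zpbp2 were at or below it. Library ranges overlapped for Acr (13.6 to 22.4% in pachytene and 10.0 to 17.9% in Sertoli barcodes of 4 libraries) and Spink2 (66.7 to 79.9% and 65.0 to 83.9%). The Sertoli share need not be the background of pachytene barcodes, as the 5 later genes were at 2.30 to 6.03% in pachytene and 15.9 to 25.6% in Sertoli barcodes. In early germ cells Acr was in 3.77%, Spink2 in 22.5%, Zpbp in 10.2% and Zpbp2 in 11.6% of barcodes. The library ranges of all 4 there lay below those in pachytene. In late pachytene the share over all barcodes was above the Sertoli share for all 4, from 28.5% against 14.5% for Acr to 90.7% against 72.3% for Spink2. By library, the ranges still overlapped for Acr, Zpbp and Spink2. For Acr the lowest late pachytene library was at 17.1% and the highest Sertoli library at 17.9%, and for Zpbp at 32.86% and 32.95%. For Zpbp2 the ranges did not overlap, at 53.3% and 48.2%. Median depths were 35691 UMIs in pachytene, 69209 in late pachytene and 3252 in Sertoli barcodes, and without thinning Acr was in 88.8%, 95.9% and 29.1% of them.

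In later round spermatids the thinned share ran from 72.3% for Spaca7 to 87.0% for Spaca1 among the 5 later genes, against 15.9 to 25.6% in Sertoli barcodes. In elongating spermatids 8 of the 9 genes were at or below the Sertoli share, and Spaca7 was at 19.3% against 17.6%. Macrophage markers (8 genes, summed) ran from 109 to 164 CPM in elongating and 256 to 384 CPM in condensing spermatids, and from 1.25 to 67.6 CPM in the stages from pachytene to the start of elongation. Sertoli markers ran from 156 to 215 CPM in early germ cells. Their part in the levels was not tested.

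Across the means of the 9 stages, Pearson's r of log2(CPM + 1) between genes described the same sets. The points share libraries and depth, so r is given as a description. The genes most like each member among 17167 genes with at least 100 UMIs were Lypd4 (r = 0.998) and 1700019A02Rik (0.997) for Acr, Stpg4 (0.997) and 1700104B16Rik (0.995) for Spink2, Cfap45 (0.997) and Wfdc3 (0.996) for Zpbp, and Gm30889 (0.995) and Toporsl (0.994) for Zpbp2. For the later set they were Adam34 and Efcab9 for Acrv1 (both 0.998), Spaca5 (0.998) and Nipsnap3a (0.996) for Spaca1, Spata45 (0.999) and Lyzl6 (0.998) for Spaca3, Catsper4 (0.997) and Gm45604 (0.996) for Spaca4, and Tex26 (0.998) and 4930474N09Rik (0.996) for Spaca7. Catsper4 was among the genes that set the stages. Spaca5 and Lyzl6 belong to the list of other acrosome genes.

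That list held 30 genes for acrosome proteins or acrosome formation, and it also split by stage. The top stage was later round spermatids for 13 of the 30, dividing spermatocytes for 5 and the start of elongation for 4. At the steps to pachytene, dividing spermatocytes and early round spermatids, 12, 22 and 19 of 30 rose and 8, 3 and 4 fell. Of all genes, 33.8%, 32.1% and 33.8% rose and 35.5%, 26% and 30% fell at these steps. At the step to pachytene the counts of the 30 were thus near those shares, with a median log2 difference of -0.21 against -0.09 over all genes. Acrbp, which binds proacrosin, followed the early set, with 639 ± 84.6 CPM (SD, n = 6) in dividing spermatocytes and a rise of 2.08 at pachytene. Dkkl1, an acrosomal glycoprotein, and Spata16, a Golgi protein needed for acrosome formation, also rose there, by 3.07 and 2.75 on the log2 scale. Fam209 and Lyzl6, a lysozyme-like gene, followed the later set, with 1366 ± 106 and 729 ± 46.1 CPM in later round spermatids.

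Izumo2, a relative of the sperm-egg fusion gene Izumo1, and Cylc2, a protein of the cytoskeleton under the acrosome, stayed longer than the 9 genes. They were at 654 ± 46.1 and 491 ± 95.8 CPM (SD, n = 6) in elongating spermatids, where all 9 genes had fallen.

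The diet comparison addresses whether short HFD feeding moves these genes in the testis. In the whole testis 0 of 9 differed (adjusted p = 0.99 to 1.00), with 0% of 20727 genes called. At an unadjusted p under 0.05 there were 0 of 9 members and 2.27% of all genes, and DESeq2 also called 0 genes. Log2 differences, libraries labelled HFD minus those labelled LFD, ran from -0.29 ± 0.22 for Spaca4 to 0.20 ± 0.12 for Spink2 (SE), with a median of -0.10 over the 9 genes and 0.02 over all genes. The 95% interval ran from -0.77 to 0.19 for Spaca4 and from -0.08 to 0.47 for Spink2. In whole-testis sums, fewer cells of a stage and less RNA per cell cannot be told apart.

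Spaca4 was at 262, 223 and 187 CPM in the whole-testis libraries labelled HFD and at 306, 204 and 346 CPM in those labelled LFD. The groups overlapped, with LFD replicate 2 below HFD replicates 1 and 2. Spink2 was at 1356, 1623 and 1579 CPM and at 1339, 1370 and 1439.6 CPM, and HFD replicate 1 lay among the libraries labelled LFD. Zpbp did not overlap, at 326, 323 and 341.7 CPM against 342.5, 346 and 418 CPM. In all, 6.68% of genes did not overlap.

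Within each of the 9 stages 0 of 9 genes were called, with 0% of the 4246 to 12749 genes tested called in any stage. DESeq2 called 1 gene in early germ cells, none of the 9, and 0 in the other stages. At the stages where they were highest the differences were small. Log2 differences in later round spermatids ran from -0.20 ± 0.13 for Spaca4 to 0.08 ± 0.09 for Spaca1 (SE; adjusted p = 0.71 to 0.95 over the 9 genes). In dividing spermatocytes Spink2 differed by 0.08 ± 0.09 and Zpbp2 by 0.10 ± 0.09 (SE; adjusted p = 0.76 and 0.71), with 95% intervals of -0.10 to 0.27 and -0.09 to 0.30. Spink2 there did not overlap between the groups, at 2508, 2469 and 2449.8 CPM against 2375, 2266 and 2366 CPM, as did 11.8% of all genes. The other members whose groups did not overlap were Spink2 and Zpbp2 in pachytene (8.59% of all genes), Spink2 in late pachytene (17.7%) and in early round spermatids (13.7%), Acr in later round spermatids (9.29%), Spaca4 in elongating spermatids (6.02%), and Acrv1 and Spaca4 in condensing spermatids, where 2 libraries stood against 2 (28.5%). In early germ cells and at the start of elongation 0 of 9 did (7.21% and 7.03%).

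Members at an unadjusted p under 0.05 were Acrv1 in pachytene (0.87 ± 0.33, SE; 3.01% of all genes at this level), Spaca4 and Spaca7 in late pachytene (2.75%), Spaca3 and Spaca4 in dividing spermatocytes (7.51%), and Spaca4 in elongating spermatids (-0.67 ± 0.24; 1.9%). In early germ cells, early round and later round spermatids, the start of elongation and condensing spermatids 0 of 9 were at this level, against 2.39%, 9.6%, 5.64%, 1.91% and 2.05% of all genes. None of the 6 values passed after adjustment (adjusted p = 0.60 to 1.00). Acrv1 in pachytene and Spaca4 and Spaca7 in late pachytene had mean levels that did not exceed the Prm1-scaled background, with single libraries on both sides of it. Spaca4 in dividing spermatocytes was above that background in 4 of 6 libraries.

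**Figure D4:**
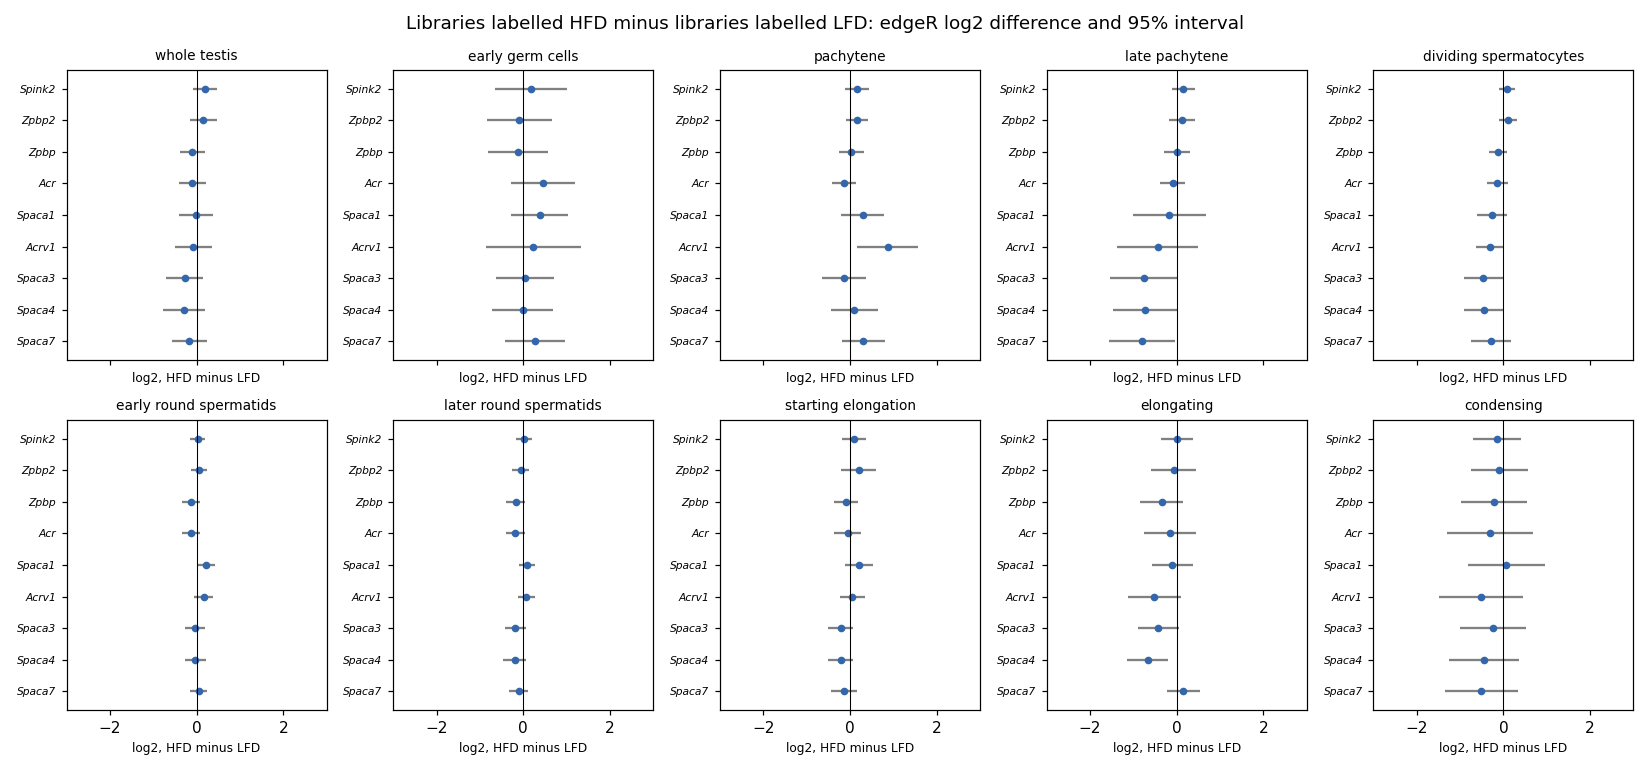
Each panel plots the log2 difference, libraries labelled HFD minus libraries labelled LFD, for the 9 genes in the whole testis or a stage (points, edgeR) with its 95% interval (bars). The points lie between -0.80 and 0.87, and the intervals are narrowest in the round spermatid stages.

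A single library set part of this result. Without HFD replicate 1, the remaining libraries labelled HFD are the 2 with the GC trend given above. In dividing spermatocytes 5 of 9 were then called lower in the libraries labelled HFD, where 13.4% of all genes were called, from -0.43 ± 0.14 for Acrv1 to -0.85 ± 0.14 for Spaca3 (SE; adjusted p = 0.044 and 0.0024). Spaca3 was at 53.0 and 36.8 CPM in HFD replicates 2 and 3, below 70.1, 83.7 and 84.9 CPM in the libraries labelled LFD, and at 82.8 CPM in HFD replicate 1, which lay among them. With the GC trend also taken out, 5 of 9 were called (Acrv1, Spaca1, Spaca3, Spaca7 and Zpbp) and 731 of 11587 genes.

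The same fit called Spaca1 and Acrv1 higher in early round spermatids (0.31 ± 0.07 and 0.27 ± 0.07, SE; 15.8% of all genes), Spaca3, Spaca4 and Zpbp lower in later round spermatids (6.65%), Spaca1 higher at the start of elongation (7.57%) and Acrv1 higher in pachytene (8.32%). With the GC trend taken out as well, Spaca1 in early round spermatids was still called (0.30 ± 0.07, SE; adjusted p = 0.039), Zpbp was called lower there (719 of 13041 genes called), and 0 of 9 were called in pachytene (148 of 11351 genes), later round spermatids (12 of 12419) and the start of elongation (51 of 10399). The direction for Spaca1 and Acrv1 thus differed between dividing and early round spermatids in this fit, and that difference was not tested. In the whole testis, early germ cells, late pachytene, elongating and condensing spermatids, leaving out HFD replicate 1 called 0 of 9, with 0.0095%, 0.0272%, 0.0282%, 0% and 0.0311% of all genes called. With all 6 libraries and the GC trend taken out, 0 of 9 were called in the whole testis and in each stage.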

How the data were processed

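Testes of mice on an HFD or LFD were dissociated and run on the 10x Genomics platform, with 10000 cells targeted per library. The kit version differs between the labels (version 2) and the methods of the study, and was not settled here. The authors used Cell Ranger 6.0.1 for alignment (mm10), cell calling and counting. The values in the deposited matrices are unscaled UMI counts of 32285 genes in 6 libraries. The study's filters (200 to 40000 genes per barcode) removed 0 barcodes.

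The genes, lists and stage markers were chosen with earlier results of these data known. Stages were gated on markers per 10000 UMIs in barcodes with at least 10000 UMIs. Counts were summed per library, over all barcodes or per stage, so the library was the replicate. Sums were tested with edgeR 4.0.16 in R 4.3.3 (quasi-likelihood, TMM, its default low-count filter, two-sided, Benjamini-Hochberg over all genes tested), HFD minus LFD, and each stage minus the stage before it with the library as a block. A call was an adjusted p under 0.05. SEs were taken from the F value. DESeq2 1.42.0 was an alternative. The tests were tried on simulated counts before use. Doublets were kept, and an alternative dropped the 3356 barcodes (6.86%) that Scrublet scored highest, at a rate of 0.8% per 1000 barcodes. In a second alternative, stages were taken from Leiden clusters in scanpy 1.11.5, built without the acrosome genes. Named genes were the 9 members, the other acrosome genes with the 3 highest levels in dividing, round and elongating stages, and the 2 genes most like each member. Promoters were RefSeq windows of GRCm38.p6, and gene positions came from GENCODE vM21, which is not the release of the authors' counting.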

Additional observations from a re-analysis of the deposited data

How the results depend on the processing

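The count of the 9 genes called differed from the main count by over 1.5 times in the following cases. From early germ cells to pachytene the main count of 4 became 9 with DESeq2 size factors, 9 with stages from clusters and 8 with library totals as the only scaling, because Acr, Spink2, Zpbp and Zpbp2 rose and most of the later genes were then called lower. At the start of elongation the count of 4 became 9 with library totals. From elongating to condensing spermatids the count of 1 became 2 with DESeq2 size factors and with stages from clusters, and 1 to 2 over fits that left out a library (2 without HFD replicate 3 or LFD replicate 2), the added gene being Zpbp2 each time. The scaling by library totals and the GC trend were tried after the data had been seen.

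For the diets, the main count of 0 called in each stage became 0 to 1 in pachytene, 0 to 5 in dividing spermatocytes, 0 to 2 in early round spermatids, 0 to 3 in later round spermatids and 0 to 1 at the start of elongation over fits that left out a library, each highest count without HFD replicate 1. Without that library and with the GC trend taken out it was 5 in dividing and 2 in early round spermatids. The other alternatives (DESeq2, DESeq2 size factors, no filter on low counts, the batch term for replicate 1 libraries, without the highest doublet scores, at least 15000 UMIs, stages from clusters and the GC trend with 6 libraries) gave 0 of 9 in the whole testis and in each stage where they could be run. No cluster became late pachytene, so the steps into and out of it were not run with clusters. The condensing stage left too few libraries at 15000 UMIs.

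The replicate numbers were used as a block, which gave 0 of 9 called in the whole testis and in the 8 stages where it could be fitted. Same-numbered libraries correlated at 0.49, 0.03 and 0.26 in their deviations from the group means, so not every number pairs its libraries. Pairs with different numbers ran from -0.41 to 0.30, with HFD replicate 2 and LFD replicate 3 at 0.30. The replicate 1 libraries, at 0.49 the highest of all pairs, also share the haemoglobin level near 0, and a batch term for them is among the alternatives above. With the replicate block the whole-testis difference of Spaca1 was 0.0061.

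Differences that changed sign were small or depended on scaling. For the whole testis, fits that left out a library gave -0.26 to 0.032 for Acrv1 and -0.16 to 0.078 for Spaca1, which was 0.00105 with no filter on low counts. With the GC trend taken out, Acrv1 in later round spermatids was at -0.023, and at -0.034 without HFD replicate 1 as well, where Spink2 in dividing spermatocytes was at -0.00114. For Acrv1 from early germ cells to pachytene the difference was -0.78 with DESeq2 size factors, -0.40 with library totals, -0.58 with stages from clusters, -0.071 without the highest doublet scores and -0.034 to 0.16 over fits that left out a library. With at least 15000 UMIs that step was at 0.041 for Spaca1, 0.14 for Spaca3, 0.15 for Spaca4 and 0.084 for Spaca7. At the start of elongation, clusters gave 0.051 for Acr and 0.024 for Spaca3, and library totals gave -0.39 for Spaca4 and -0.49 for Spaca7. From early to later round spermatids Zpbp was at -0.12 with library totals. The cause was not tested. Depth limits the reading of levels near the free RNA level.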
